A study of Mus musculus with 18 samples.

Results

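The 42 genes described here run the meiotic cell cycle of the egg and the checkpoint that watches its spindle. They were taken by symbol from a list of cyclin B and Cdk1 regulators, cytostatic factor, anaphase promoting complex subunits, and checkpoint, passenger and kinetochore genes. The listed symbols alone decide membership, though the list was drawn up with earlier results of these data known. All 42 were found among 55471 gene rows and all 42 passed the filter on low counts. None of them was called different between oocytes labelled Isca2 knockout (KO) and wild-type (WT) oocytes by the edgeR quasi-likelihood test at an adjusted p of 0.05. That test called 0% of all 13680 genes tested as higher and 0.0146% as lower in the libraries labelled KO. At an unadjusted p under 0.05, 2 members (4.76%) were lower and 0 higher, against 3.3% and 2.89% of all genes. DESeq2 and limma-voom also called 0 members at the adjusted threshold. The 95% interval of the fold change between these libraries stayed within 2-fold either way for 36 members (85.7%), against 45.8% of all genes tested. It stayed within 1.5-fold for 24 members (57.1%), against 21.7% of all genes.

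The series holds 18 mouse samples in 7 groups, and the 6 libraries used here are messenger RNA of MII oocytes, eggs that have stopped at the second meiotic metaphase. There were 3 libraries with the Isca2 -/- genotype and 3 of wild type. Isca2 encodes a mitochondrial protein that helps to assemble iron-sulfur clusters. The labels give neither age, strain, number of oocytes or animals per library, nor the deleted part of the gene. The only protocol text attached to these samples describes blastocysts from crosses of Isca2 heterozygous parents, amplified with a kit for full-length mRNA of single cells. Nothing says that replicates came from separate animals, so the spread behind each p-value is that between these libraries and may be technical.

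Isca2 itself was not lower in the libraries labelled KO. It had 2.32, 3.14 and 4.23 CPM (counts scaled to library size) in the 3 libraries labelled KO, against 0.613, 0.535 and 5.24 CPM in the WT libraries. The groups overlapped through WT replicate 3, and the edgeR quasi-likelihood test gave a log2 fold change of 0.59 (SE 0.89, adjusted p = 0.907). Without that library it gave a log2 fold change of 2.48 (SE 0.55, adjusted p = 0.0969). The gene-wide count may not see a small deletion, and directions below are drawn between libraries as labelled.

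The libraries were deep, with 17792157 to 30240350 expected counts each. All 12 oocyte markers on a list that includes Gdf9, Bmp15, Zp3 and Dppa3 were detected in all 6 libraries, and their deposited TPM (transcript levels scaled to length and library) summed to 28449 to 29652 in KO and 28380 to 32510 in WT. Single oocyte markers varied more than these sums, which Dppa3 and Oosp1 led. Zp3 had 307, 296 and 305 TPM in KO, against 428, 302 and 1625 TPM in WT. Zp2 and Nlrp5 were also highest in WT replicate 3, while Dppa3 and Oosp1 were lowest there. WT replicate 3 stood apart. Its log CPM correlated with the other libraries at Pearson's r of 0.881 to 0.903 across the genes tested, against 0.930 to 0.960 for all other pairs, which is a description over genes that are not independent. A list of 14 macrophage and immune genes summed to 2803 TPM in that library, against 10.5 to 17.7 TPM in the other 5. A granulosa and cumulus list of 15 genes summed to 68.8, 151 and 179 TPM in KO, against 55.4, 37.9 and 46.5 TPM in WT. Cyp19a1, the highest of the list in every WT library, was not higher in KO. It had 35.7, 34.6 and 28.4 TPM in KO, against 39.0, 37.2 and 33.3 TPM in WT. In this list 6 of 15 genes (Gja1, Fst, Igf1, Hsd17b1, Inhbb and Fshr) had every KO library above every WT library in TPM, and 0 had every KO library below. Among all genes tested, by CPM, 6.48% had every KO library above and 5.96% every KO library below. Gja1, the gap junction gene of these cells, had 16.8, 50.1 and 51.1 TPM in KO, against 4.52, 0.17 and 0.05 TPM in WT. Fst had 5.63, 21.0 and 13.5 TPM in KO, against 1.49, 0 and 0.85 TPM in WT. The defining genes Foxl2 and Amh were at most 0.12 TPM in every library. Of 8 genes of cycling somatic cells, the sum was 416 to 439 TPM in KO and 373 to 414 TPM in WT. For 6 blood genes it was at most 2.15 TPM in KO and 2.92 TPM in WT, and for 5 genes of 2-cell embryos 375 to 396 TPM in KO and 316 to 451 TPM in WT. The part of these signals in the results below was not tested, and the counts of members called, the intervals and most single genes are also given over the 5 libraries without WT replicate 3.

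An MII egg waits for sperm with its chromosomes lined up on a spindle. The arrest is held by active Cdk1 with cyclin B, the kinase that drives cells into division. Cytostatic factor keeps it active: Mos starts a MAP kinase cascade, and Emi2, the product of Fbxo43, blocks the anaphase promoting complex, a ubiquitin ligase. Fertilisation releases calcium, Emi2 is destroyed, and the complex marks cyclin B and securin for destruction, so that separase can cut the cohesin that joins sister chromatids. The spindle checkpoint holds the same ligase back until kinetochores are attached. The transcripts of a fully grown oocyte were made earlier and stored, and transcription is largely silent at this stage. In bulk libraries such as these, fewer oocytes and less RNA per oocyte cannot be told apart.

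The members spanned a wide range of levels on the deposited TPM scale, which is scaled to transcript length. Pttg1, which encodes securin, stood at the top. It had 14429, 12613 and 13096 TPM in KO, against 13218, 14094 and 10805 TPM in WT. Its share of the summed TPM of all 42 members was 48.4% to 52.6% in the 6 libraries. Cks2, a small subunit of Cdk complexes, followed with a mean of 3679 TPM over the 6 libraries. Ccnb1 averaged 2115 TPM and the checkpoint gene Mad2l1 averaged 1249 TPM. These 4 were the members above 1000 TPM. Another 15 lay between 100 and 1000 TPM, 18 between 10 and 100 TPM, and 5 under 10 TPM.

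The low end included Aurkb, whose germline relative Aurkc averaged 857 TPM. Cdc25c was lowest with a mean of 1.25 TPM, followed by Cdc25b with 2.63 TPM, Aurkb with 4.45 TPM, Cdc23 with 6.06 TPM and Mad1l1 with 7.68 TPM. In KO the 42 members together made 26425 ± 969 TPM, and in WT 25131 ± 2482 TPM (SD, n = 3 each), which was 2.23% to 2.74% of all TPM in a library. The groups overlapped in this sum. Ccnb1, Cdc23 and Aurkc had expected counts that were not whole numbers in all 6 libraries, so RSEM had shared their reads with other genes and their levels are uncertain.

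**Figure D1:**
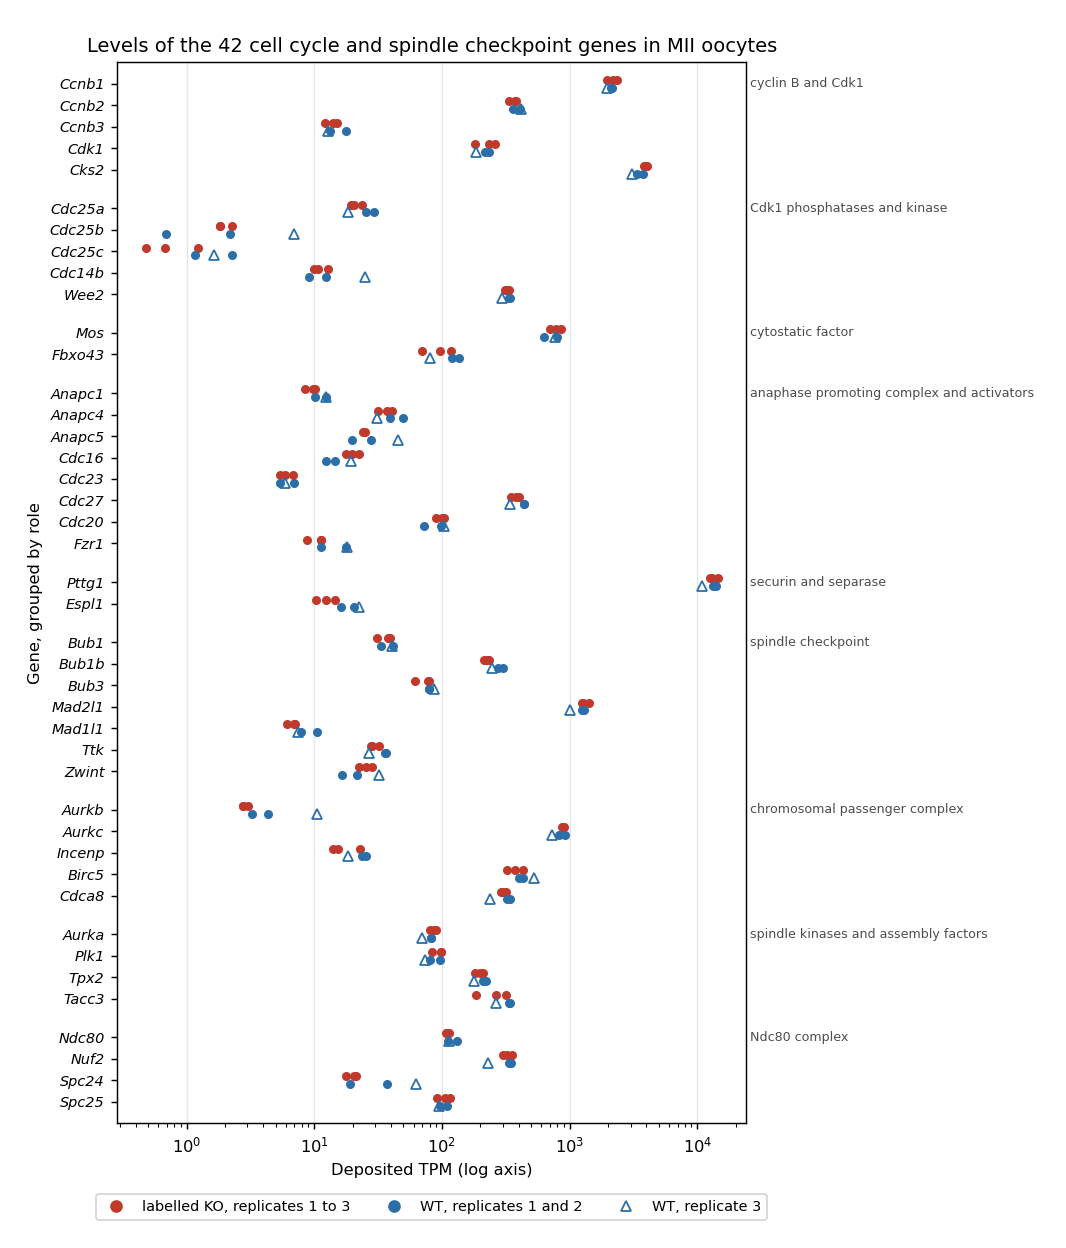
Level of each of the 42 genes in the 6 MII oocyte libraries as deposited TPM on a log axis, grouped by role, with 1 point per library and the libraries labelled KO drawn above the WT libraries. Pttg1 lies near 13043 TPM on average and Cdc25c near 1.25 TPM, and the points of most genes lie close together.

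Promoter sequences bear on how these genes are grouped in dividing cells. In somatic cells many genes of this kind share a cell cycle genes homology region (CHR), read by the MuvB complexes, and CCAAT boxes, read by NF-Y. RefSeq promoter windows of build GRCm38.p6, from 250 bases before to 50 after the start, were matched for 34 of the 42 members. A CHR match (TTTGAA or TTCGAA on either strand) was found for 14 of the 34 members, which is 41.2%, against 21.7% of 27025 genes. CCAAT, again on either strand, was found for 23 members, 67.7% against 41.1% of these genes. Both motifs in the same window were found for 13 members, 38.2% against 8.61%. A gene was counted once for each motif, however many matches or windows it had, and a match describes letters, not a bound site.

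The windows of 5 members are printed because they show both abundant B cyclins, the activator Cdc20, the kinase Plk1 and the germline kinase Aurkc side by side. They read 5′ to 3′ on the strand of the gene, in lower case with the CHR and CCAAT matches of either strand in capitals. Of the B cyclins, Ccnb2 has 2 CHR matches and 3 CCAAT matches, while Ccnb1 has 2 CCAAT matches and no CHR match. Cdc20 has 1 CHR and 2 CCAAT matches, Plk1 has 1 of each, and Aurkc has 1 CCAAT match, read on the other strand, and no CHR match.
Ccnb1 (GRCm38.p6, chr13:100786437-100786736, minus strand): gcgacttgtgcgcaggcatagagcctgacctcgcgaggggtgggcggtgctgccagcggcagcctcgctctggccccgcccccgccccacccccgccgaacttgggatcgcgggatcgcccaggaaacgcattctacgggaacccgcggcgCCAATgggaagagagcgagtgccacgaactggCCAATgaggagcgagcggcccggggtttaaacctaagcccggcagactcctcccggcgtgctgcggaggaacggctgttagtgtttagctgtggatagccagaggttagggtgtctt
Ccnb2 (GRCm38.p6, chr9:70421505-70421804, minus strand): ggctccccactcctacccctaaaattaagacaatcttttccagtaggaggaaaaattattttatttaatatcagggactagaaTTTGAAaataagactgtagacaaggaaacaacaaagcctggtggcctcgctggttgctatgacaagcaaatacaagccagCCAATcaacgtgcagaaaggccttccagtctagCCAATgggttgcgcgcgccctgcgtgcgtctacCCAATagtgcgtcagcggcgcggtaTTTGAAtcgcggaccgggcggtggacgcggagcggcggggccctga
Cdc20 (GRCm38.p6, chr4:118437294-118437593, minus strand): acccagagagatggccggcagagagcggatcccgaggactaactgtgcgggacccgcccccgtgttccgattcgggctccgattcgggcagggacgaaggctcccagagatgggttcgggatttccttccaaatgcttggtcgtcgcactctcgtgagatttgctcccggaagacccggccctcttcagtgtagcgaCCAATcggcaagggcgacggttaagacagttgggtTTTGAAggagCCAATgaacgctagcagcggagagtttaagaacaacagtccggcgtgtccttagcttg
Plk1 (GRCm38.p6, chr7:122159185-122159484, plus strand): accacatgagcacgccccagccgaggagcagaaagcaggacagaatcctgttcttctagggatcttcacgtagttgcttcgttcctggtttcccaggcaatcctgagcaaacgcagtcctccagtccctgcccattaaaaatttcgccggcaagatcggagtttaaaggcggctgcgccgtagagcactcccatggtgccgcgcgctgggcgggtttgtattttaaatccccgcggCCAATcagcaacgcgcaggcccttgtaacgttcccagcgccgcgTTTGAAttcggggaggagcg
Aurkc (GRCm38.p6, chr7:6995135-6995434, plus strand): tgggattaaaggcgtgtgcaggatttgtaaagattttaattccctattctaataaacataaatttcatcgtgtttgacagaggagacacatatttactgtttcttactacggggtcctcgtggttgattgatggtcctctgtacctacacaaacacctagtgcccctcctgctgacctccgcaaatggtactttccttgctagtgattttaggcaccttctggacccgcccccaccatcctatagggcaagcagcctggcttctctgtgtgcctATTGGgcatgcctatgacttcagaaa

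The comparison of KO with WT oocytes asked whether any of the 42 transcripts differed. The edgeR quasi-likelihood test called 0 members as higher and 0 as lower at an adjusted p of 0.05. At an unadjusted p under 0.05 there were 0 higher members, where 2.89% of all genes passed, and 2 lower members, Fzr1 and Aurkb, which is 4.76% of the list, where 3.3% of all genes passed. DESeq2 and limma-voom also called 0 members, with 4 and 2 members at an unadjusted p under 0.05. Of KO against WT, the log2 fold change lay below 0 for 24 of the 42 members (57.1%), against 54.6% of all genes tested. Its median was -0.06 over the members and -0.04 over all genes.

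Differences were small for most members. The 95% interval of the fold change lay within 2-fold either way for 36 of 42 members (85.7%), against 45.8% of all genes tested, and within 1.5-fold for 24 (57.1%), against 21.7%. The coefficient of variation of CPM over the 6 libraries, whatever their group, had a median of 14.0% for the members and 27.1% for all genes, and was under 20% for 31 members. Over the 5 libraries without WT replicate 3 that median was 10.5% for the members and 23.1% for all genes. Abundant genes carry less counting error, and the part of abundance in this narrow spread was not tested. A log2 fold change of 1 or more in size was found for Cdc25c and Aurkb, 4.76% of the members against 12.5% of all genes.

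**Figure D2:**
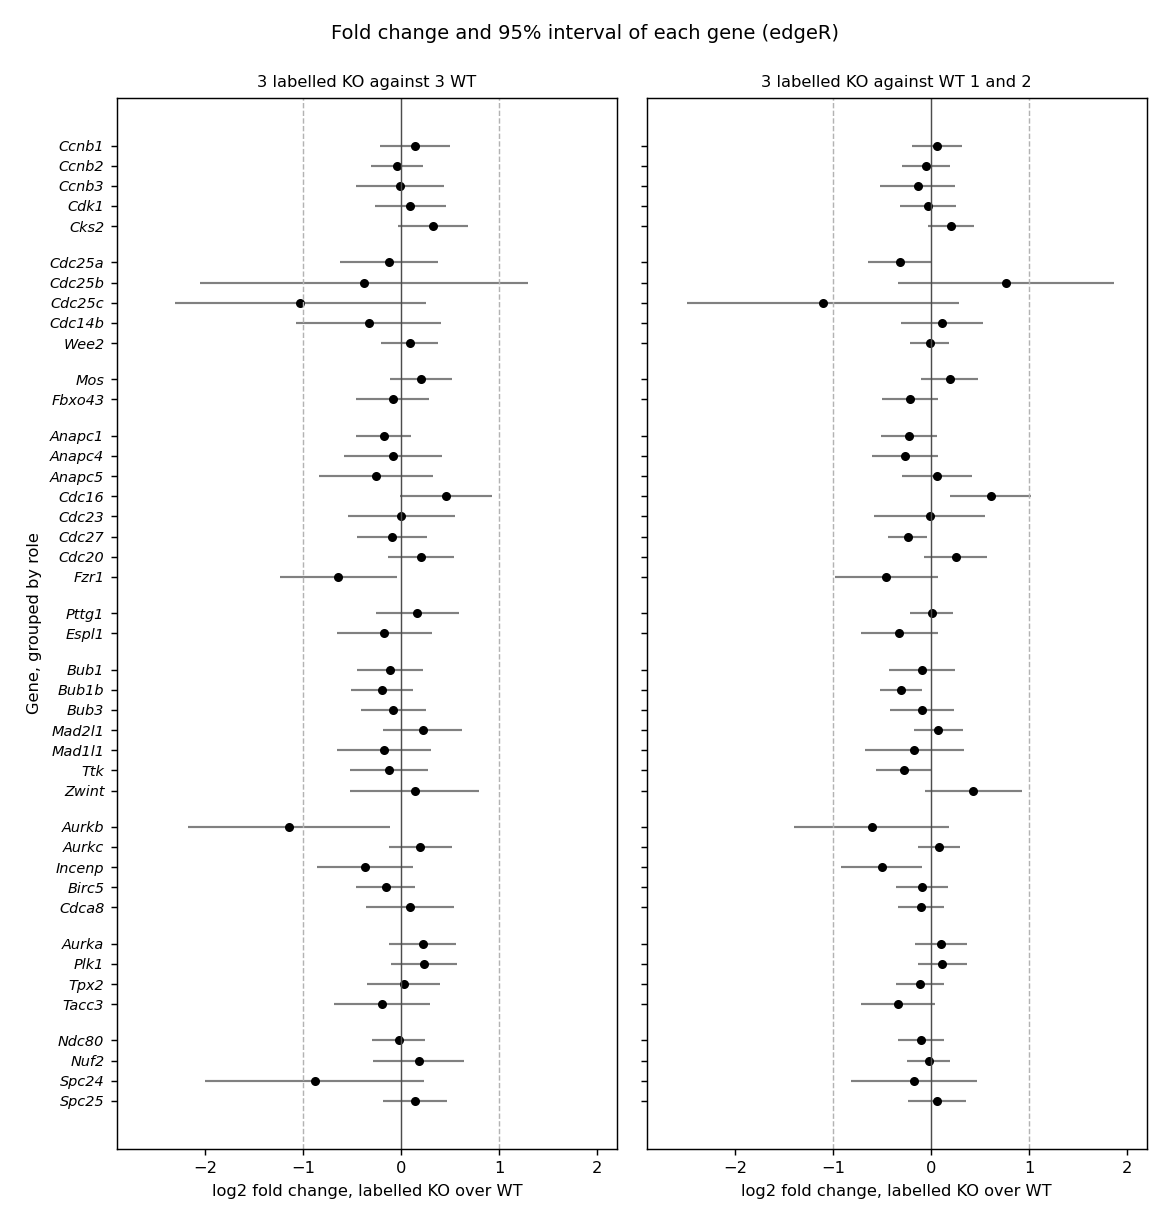
Log2 fold change of KO over WT for each of the 42 genes (points) with its 95% interval (lines) from edgeR, over 6 libraries in the left panel and over the 5 without WT replicate 3 in the right, with dashed lines at 2-fold. In the left panel intervals are widest for Cdc25b, Cdc25c, Spc24 and Aurkb, and the 19 members above 100 TPM lie between -0.20 and 0.32.

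Without WT replicate 3 the count test still called 0 members in either direction, where it called 0.574% of 14122 genes tested as higher and 0.0779% as lower. At an unadjusted p under 0.05, Cdc16 was higher and Cdc27, Bub1b and Incenp were lower, against 7.68% higher and 3.89% lower among all genes. DESeq2 and limma-voom called 0 members on these 5 libraries too, and the smallest adjusted p was 0.0599, for Bub1b in DESeq2. Among all genes DESeq2 called 426 higher and 76 lower on them, and limma-voom 5 higher and 6 lower. The log2 fold change was below 0 for 27 members (64.3%), against 48.5% of all genes, and its median was -0.09 over the members and 0.01 over all genes. The interval stayed within 2-fold for 38 members (90.5%), against 48.1% of all genes.

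In the full set of libraries, 5 members had groups that did not overlap. Cks2 lay above WT in all 3 libraries labelled KO, 1 member (2.38%) where 6.48% of all genes did the same. Anapc1, Fzr1, Mad1l1 and Aurkb lay below WT in all 3, 4 members (9.52%) where 5.96% of all genes did. With 5 libraries the groups were apart for 3 members above (Cks2, Cdc25b and Cdc16, 7.14%, against 15.3% of all genes) and 11 below (26.2%, against 13.3%). Those 11 were Cdc25a, Fbxo43, Anapc1, Cdc27, Fzr1, Espl1, Bub1b, Mad1l1, Ttk, Aurkb and Incenp, and none of them passed the adjusted test.

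The engine of the cycle is cyclin B with Cdk1, and the smallest adjusted p among its 5 genes was 0.766 in edgeR. Ccnb1, the main mitotic and meiotic B cyclin, had 3431, 3847 and 4475 CPM in KO, against 3645, 3857 and 3137 CPM in WT. The groups overlapped, with a log2 fold change of 0.14 (SE 0.15, adjusted p = 0.855) in edgeR and a 95% interval from -0.22 to 0.50. Over 5 libraries its log2 fold change was 0.06. Cks2, which docks Cdk complexes onto phosphorylated substrates and is needed for meiosis in mice, had 1453, 1370 and 1496 CPM in KO, against 1135, 1364 and 950 CPM in WT. Every KO value was above every WT value, though KO replicate 2 and WT replicate 2 were nearly level. The means were 1440 ± 63.8 and 1149 ± 208 CPM (SD, n = 3 each), and edgeR gave a log2 fold change of 0.32 (SE 0.15, adjusted p = 0.766). With WT replicate 3, the lowest of the 6, left out, edgeR gave a log2 fold change of 0.20 (SE 0.10, adjusted p = 0.512). Cdk1, Ccnb2 and Ccnb3, a B-type cyclin needed for the first meiotic anaphase in mouse oocytes, had log2 fold changes of 0.09, -0.04 and -0.01.

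The phosphatases and the kinase that set Cdk1 activity included the least abundant members. Cdc25c, one of 3 Cdc25 phosphatases that remove inhibitory phosphates from Cdk1, had 1.66, 1.01 and 0.705 CPM in KO, against 1.53, 3.31 and 2.07 CPM in WT. These rest on 18 to 38 expected counts in KO and 35 to 68 in WT, and the groups overlapped. The fit gave a log2 fold change of -1.03 (SE 0.55, adjusted p = 0.767) in edgeR and a log2 fold change of -1.10 over 5 libraries. The 6-library estimate came with a 95% interval from -2.31 to 0.25, so a 2-fold difference could not be told from none at this depth. Cdc25b, the form that mouse oocytes need to resume meiosis, varied most within WT, at 1.23, 3.79 and 11.6 CPM, against 4.03, 4.31 and 4.44 CPM in KO. Its log2 fold change was -0.38 over 6 libraries and 0.77 without WT replicate 3, so its direction turned on that library. Wee2, an oocyte kinase that phosphorylates Cdk1 to hold it inactive and is needed for exit from MII, had 646, 620 and 654 CPM in KO, against 635, 655 and 518 CPM in WT. WT replicate 3 was the lowest value and the other 5 varied by 2.25% around their mean. Wee2 had a log2 fold change of 0.09 (SE 0.12, adjusted p = 0.899) in edgeR, against a log2 fold change of -0.01 without that library. Cdc25a and Cdc14b, a phosphatase that helps to activate the anaphase promoting complex, had log2 fold changes of -0.12 and -0.33.

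Cytostatic factor is represented by its kinase and its ligase inhibitor. Mos, the kinase at the head of the MAP kinase cascade, had 675, 751 and 881 CPM in KO, against 727, 620 and 658 CPM in WT. The groups overlapped between KO replicate 1 and WT replicate 1, and edgeR gave a log2 fold change of 0.20 (SE 0.14, adjusted p = 0.793). It was 0.19 over 5 libraries. Fbxo43, which encodes Emi2, had 145, 144 and 116 CPM in KO, against 152, 161 and 117 CPM in WT. Its log2 fold change was -0.09 over 6 libraries and -0.21 over 5.

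**Figure D3:**
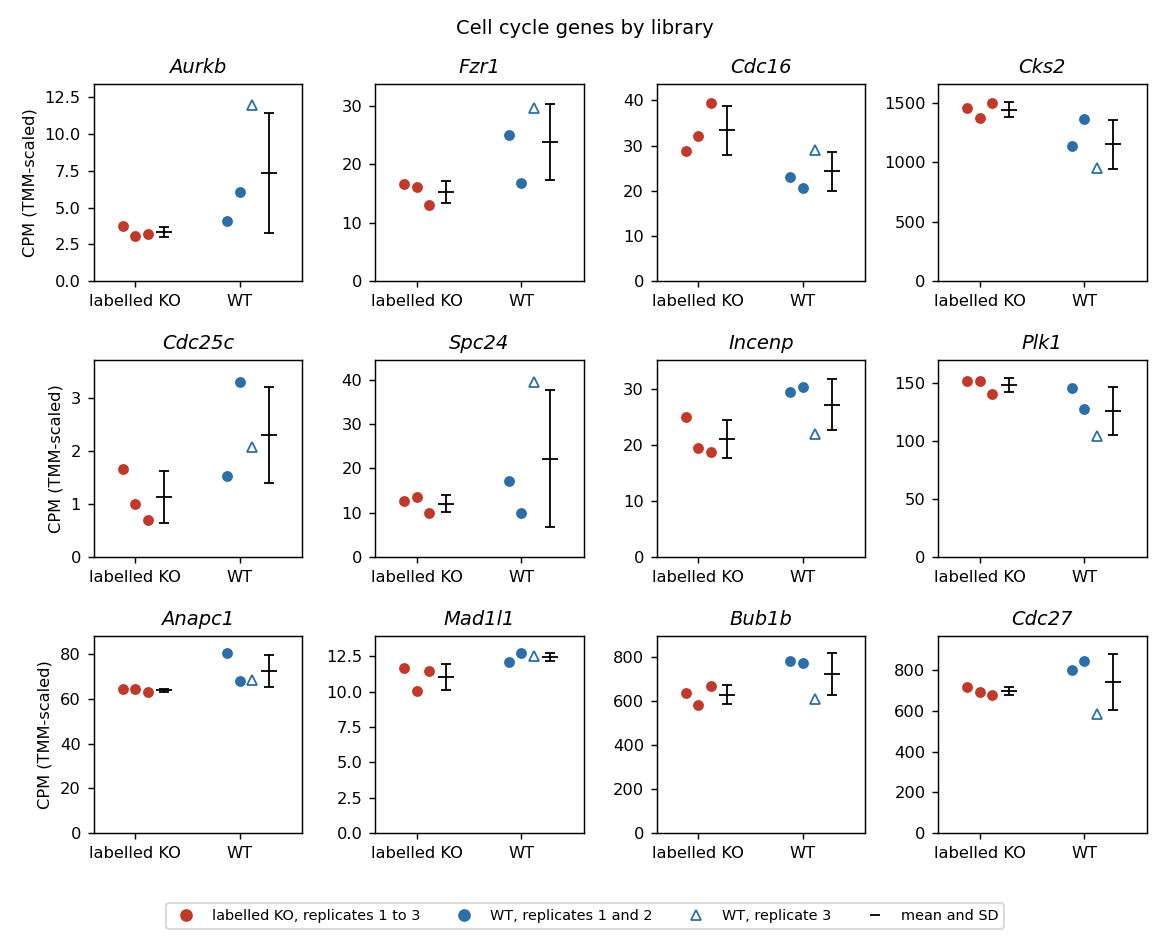
TMM-scaled CPM in each library (vertical axes from 0), 1 gene a panel, with the 3 libraries labelled KO left of the 3 WT libraries, WT replicate 3 as an open triangle, and the mean with its SD as a bar. Cks2 lies above WT in all 3 KO libraries and Aurkb, Fzr1, Anapc1 and Mad1l1 lie below it, while the other genes drawn overlap between groups.

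The anaphase promoting complex is represented by 6 core subunits and 2 activators, with log2 fold changes from -0.64 to 0.46. Cdc27, the subunit with the highest level and part of the arm that binds activators, had 721, 695 and 681 CPM in KO, against 800, 846 and 587 CPM in WT. WT replicate 3 was the lowest library and WT replicates 1 and 2 the highest. Over 6 libraries edgeR gave a log2 fold change of -0.09 (SE 0.15, adjusted p = 0.918), and over 5 a log2 fold change of -0.24 (SE 0.09, adjusted p = 0.330). Cdc16, which sits in the same arm, had 28.7, 32.0 and 39.3 CPM in KO, against 23.1, 20.7 and 29.1 CPM in WT. Only WT replicate 3 reached above the lowest KO library, and the fit gave a log2 fold change of 0.46 (SE 0.20, adjusted p = 0.766) in edgeR. Without that library the groups were apart, with a log2 fold change of 0.61 (SE 0.18, adjusted p = 0.209) and an unadjusted p of 0.00878. Anapc1, the largest scaffold subunit, had 64.2, 64.3 and 63.1 CPM in KO, against 80.7, 68.2 and 68.3 CPM in WT. The KO libraries lay just under the WT libraries, with a log2 fold change of -0.18 (SE 0.12, adjusted p = 0.793) in edgeR and a log2 fold change of -0.22 over 5 libraries.

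Neither activator of the complex passed the adjusted test. Cdc20, which activates it at anaphase and is the target of the checkpoint, had 122, 108 and 138 CPM in KO, against 114, 91.5 and 114 CPM in WT. Its groups overlapped, and its log2 fold change was 0.20 over 6 libraries and 0.25 over 5. Fzr1, which encodes Cdh1, the activator that keeps oocytes in prophase arrest, had 16.6, 16.1 and 13.1 CPM in KO, against 25.0, 16.8 and 29.7 CPM in WT. Every KO value was below every WT value, though KO replicate 1 and WT replicate 2 were nearly level. With 6 libraries edgeR gave a log2 fold change of -0.64 (SE 0.25, adjusted p = 0.766), an unadjusted p of 0.0378 and a 95% interval from -1.24 to -0.05. With 5 it gave a log2 fold change of -0.45 (SE 0.23, adjusted p = 0.514). Anapc4, Anapc5 and Cdc23, further subunits, had log2 fold changes of -0.08, -0.26 and 0.0013.

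Securin must be destroyed before separase can cut the cohesin that joins sister chromatids. Pttg1, the securin gene, had 5424, 4717 and 5169 CPM in KO, against 4735, 5399 and 3517 CPM in WT. WT replicate 3 was the lowest and the groups overlapped. The fit gave a log2 fold change of 0.17 (SE 0.18, adjusted p = 0.859) in edgeR over 6 libraries and a log2 fold change of 0.01 over 5, with a 95% interval from -0.21 to 0.23. Espl1, which encodes separase, had 29.9, 30.7 and 28.1 CPM in KO, against 42.8, 31.1 and 26.1 CPM in WT. WT replicate 1 was high and WT replicate 3 low, and its log2 fold change was -0.17 over 6 and -0.32 over 5 libraries.

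The spindle checkpoint genes had log2 fold changes between -0.20 and 0.22 over 6 libraries, and the smallest adjusted p among the 7 was 0.794 in edgeR. Over 5 libraries the range was -0.30 to 0.43, and the smallest adjusted p in edgeR was 0.219. Mad2l1, whose protein binds and inactivates Cdc20, had 1539, 1509 and 1869 CPM in KO, against 1489, 1623 and 1116 CPM in WT. The groups overlapped and WT replicate 3 was the lowest, with a log2 fold change of 0.22 (SE 0.17, adjusted p = 0.809) in edgeR, against a log2 fold change of 0.07 over 5 libraries. Mad1l1 anchors Mad2 at unattached kinetochores. It had 11.7, 10.02 and 11.5 CPM in KO, against 12.1, 12.7 and 12.5 CPM in WT. The groups did not overlap but lay close together, and edgeR gave a log2 fold change of -0.17 (SE 0.21, adjusted p = 0.875), with -0.17 on the log2 scale over 5 libraries. Bub1b, which encodes BubR1, a part of the checkpoint complex that holds Cdc20, had 633, 583 and 668 CPM in KO, against 780, 770 and 609 CPM in WT. WT replicates 1 and 2 lay above all KO libraries and WT replicate 3 lay among them. With 6 libraries edgeR gave a log2 fold change of -0.20 (SE 0.13, adjusted p = 0.794), and with 5 it gave a log2 fold change of -0.30 (SE 0.09, adjusted p = 0.219) and an unadjusted p of 0.00977. The kinase gene Bub1, Bub3, whose protein brings Bub1 and BubR1 to kinetochores, Ttk, which encodes the kinase Mps1, and the kinetochore gene Zwint had log2 fold changes of -0.11, -0.08, -0.13 and 0.14. Over 5 libraries these were -0.09, -0.09, -0.28 and 0.43.

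The chromosomal passenger complex corrects faulty attachments, and its kinase genes lay far apart in level. Aurkc, the germline Aurora kinase that serves this complex in oocytes, had 579, 595 and 651 CPM in KO, against 589, 560 and 445 CPM in WT. The groups overlapped, with a log2 fold change of 0.20 (SE 0.14, adjusted p = 0.795) in edgeR, against a log2 fold change of 0.08 over 5 libraries. Aurkb, the form that somatic cells use, had 3.72, 3.08 and 3.21 CPM in KO, against 4.12, 6.03 and 11.9 CPM in WT. All KO values were below all WT values, and WT replicate 3 was far above the other WT libraries. Behind these are 55 to 91 expected counts in KO and 94 to 346 in WT. Over 6 libraries edgeR gave a log2 fold change of -1.14 (SE 0.44, adjusted p = 0.766), an unadjusted p of 0.0342 and a 95% interval from -2.17 to -0.11. Over 5 libraries the groups still did not overlap, with a log2 fold change of -0.60 (SE 0.35, adjusted p = 0.575).

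Incenp, the scaffold that binds Aurora kinases, had 24.9, 19.5 and 18.8 CPM in KO, against 29.5, 30.3 and 21.9 CPM in WT. WT replicates 1 and 2 were the highest, and edgeR gave a log2 fold change of -0.37 (SE 0.21, adjusted p = 0.779) over 6 libraries and a log2 fold change of -0.50 (SE 0.18, adjusted p = 0.317) over 5. Birc5, which encodes survivin, and Cdca8, which encodes borealin, had log2 fold changes of -0.16 and 0.09.

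Of the spindle kinases and assembly factors, Plk1 had the smallest edgeR p over 6 libraries and Tacc3 over 5. Plk1, a kinase needed for spindle assembly and for activating the anaphase promoting complex, had 152, 152 and 141 CPM in KO, against 146, 128 and 104 CPM in WT. The groups overlapped only between KO replicate 3 and WT replicate 1, and edgeR gave a log2 fold change of 0.24 (SE 0.14, adjusted p = 0.787). Its log2 fold change was 0.12 over 5 libraries. Tacc3, which works with Aurora A in organising the acentrosomal spindle, had 471, 386 and 293 CPM in KO, against 469, 500 and 350 CPM in WT. Both groups varied widely and overlapped, with a log2 fold change of -0.20 (SE 0.21, adjusted p = 0.853) in edgeR and a log2 fold change of -0.34 over 5 libraries. Aurka, the Aurora kinase of spindle poles, and its activator Tpx2 had log2 fold changes of 0.22 and 0.03.

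The Ndc80 complex couples kinetochores to microtubules and all 4 of its subunit genes are members. Nuf2, its subunit gene with the highest level, had 475, 513 and 479 CPM in KO, against 474, 520 and 303 CPM in WT. WT replicate 3 stood well below the other 5, and the log2 fold change was 0.18 over 6 and -0.02 over 5 libraries. Spc24, at the end of the complex that faces the chromosome, had 12.6, 13.7 and 9.94 CPM in KO, against 17.2, 9.97 and 39.5 CPM in WT. Here WT replicate 3 stood above all others, with a log2 fold change of -0.88 (SE 0.48, adjusted p = 0.767) in edgeR, and -0.17 on the log2 scale without it. Ndc80, which encodes the subunit that grips the microtubule, and Spc25, the partner of Spc24, had log2 fold changes of -0.03 and 0.14.

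WT replicate 3 differed from the other WT libraries in both directions among the members. Its CPM divided by the mean of WT replicates 1 and 2 had a median of 0.82 over the members and 1.03 over all genes tested, and 30 of the 42 members lay below that mean. Nuf2 had the lowest ratio, 0.609. Only 4 members were over 2-fold in it, Cdc25b at 4.60, Spc24 at 2.91, Aurkb at 2.35 and Cdc14b at 2.09, which is 9.52% of the members against 21.2% of all genes. The 19 members with a mean above 100 TPM had ratios from 0.609 to 1.14. Those 4 members were all at most 100 TPM. The part of the immune RNA in that library was not tested.

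**Figure D4:**
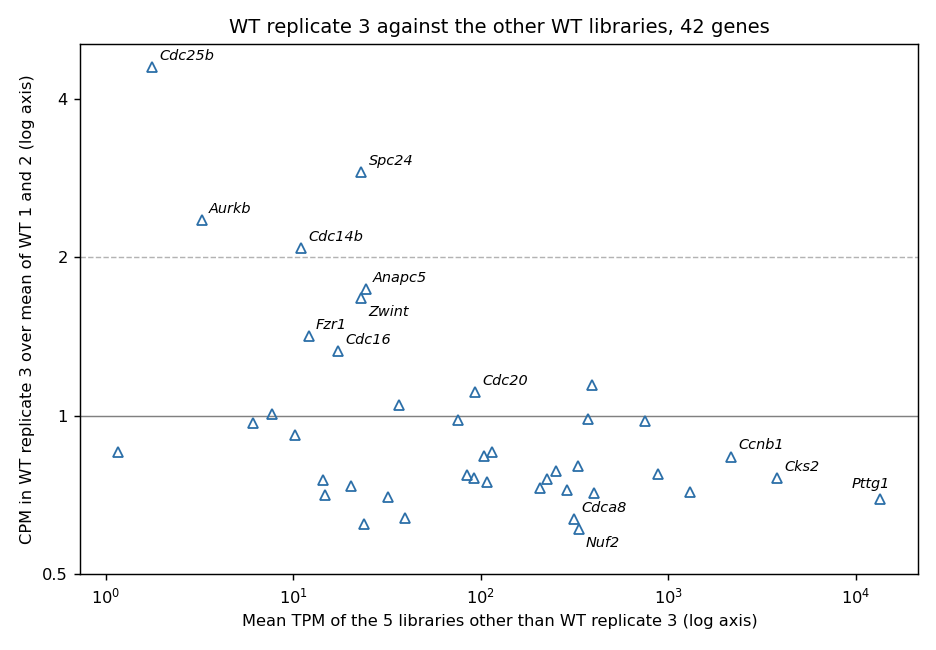
For each of the 42 genes, the CPM of WT replicate 3 divided by the mean of WT replicates 1 and 2 (vertical log axis) against the mean deposited TPM of the other 5 libraries (horizontal log axis). The members over 2-fold, Cdc25b, Spc24, Aurkb and Cdc14b, lie below 100 TPM, and Pttg1, Cks2 and Ccnb1 lie under 1.

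Ratios of partner genes within a library were compared as well, since scaling between libraries cancels in them. The pairs were chosen after the data were seen, so the p-values below describe the ratios and are not independent evidence. How often other gene pairs have groups apart was not computed. On the TPM scale, Aurkc over Aurkb was 287, 320 and 326 in KO, against 282, 191 and 69.8 in WT. Cdc20 over Fzr1, the 2 activators, was 8.89, 7.88 and 11.9 in KO, against 5.59, 6.43 and 5.67 in WT. Securin over separase transcripts, Pttg1 over Espl1, gave 1168, 1225 and 894 in KO, against 649, 868 and 486 in WT. Each of these had all KO libraries above all WT libraries, by a narrow gap for Aurkc over Aurkb and for Pttg1 over Espl1. Mad2l1 over Mad1l1 did the same, with 182, 177 and 232 in KO, against 159, 121 and 135 in WT. For each of these 4 the two-sided exact permutation test gave p = 0.1, the smallest that 3 libraries against 3 allow, and 0.15 after Benjamini-Hochberg adjustment over the 6 ratios computed. Ccnb1 over Ccnb2 averaged 5.98 ± 0.71 in KO and 5.24 ± 0.62 in WT, and Wee2 over Cdc25a 15.3 ± 1.55 in KO and 13.6 ± 2.27 in WT (SD, n = 3 each). Groups overlapped in both, with p = 0.2 in the exact permutation test. The deposited TPM rests on the length RSEM estimated in each library, and that of Espl1 ranged from 1849 to 4004 bases. Taken from CPM, which uses no length, Pttg1 over Espl1 was 181, 153 and 184 in KO, against 111, 174 and 135 in WT, so the groups overlapped. The other 3 of these 4 ratios kept all KO libraries above all WT libraries on that scale, with p = 0.1 in the exact permutation test and 0.2 after adjustment over the 6. Without WT replicate 3 the smallest p that the exact permutation test gave on the TPM scale was 0.2, and no ratio changed direction. A ratio by itself does not show which of its genes differed. In CPM, Aurkb, Fzr1 and Mad1l1 already lay below WT in all 3 libraries labelled KO, while the groups of Aurkc, Cdc20 and Mad2l1 overlapped. The ratios of these genes therefore add no separate result.

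**Figure D5:**
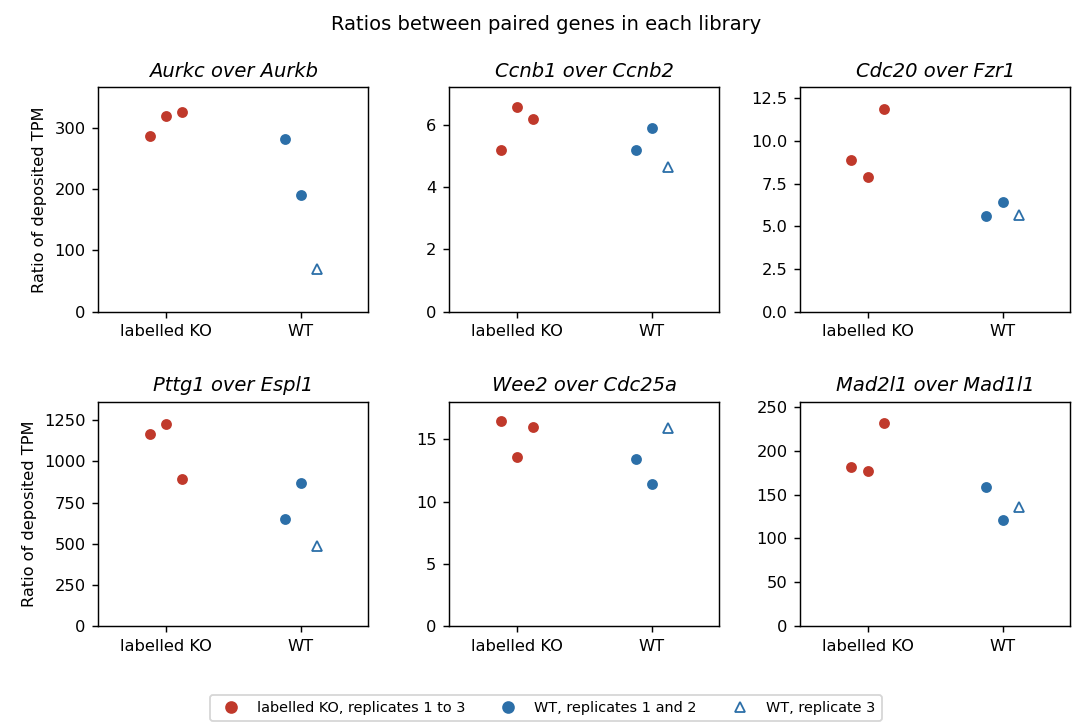
Ratio of deposited TPM between 6 pairs of partner genes, 1 pair a panel on a linear axis from 0 and 1 point per library, with the libraries labelled KO left of WT. Aurkc over Aurkb spans 287 to 326 in KO and 69.8 to 282 in WT. On this scale 4 of the 6 ratios have all KO points above all WT points, which for Pttg1 over Espl1 is lost when CPM is used.

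Transcripts of subunits of one complex did not have like levels on the deposited TPM scale. In the anaphase promoting complex, Cdc27 had 55.3 to 81.0 times the TPM of Cdc23 in the 6 libraries, where the level of Cdc23 is uncertain through shared reads. In the Ndc80 complex, Nuf2 had 15.9, 16.7 and 17.0 times the TPM of Spc24 in KO, against 9.08, 18.0 and 3.64 times in WT. The KO libraries lay within the spread of WT.

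The files also give the mean transcript length of each gene, weighted by the isoforms RSEM found. Of the 39 members with more than 1 transcript in the annotation, 23 had a length that ranged by under 5% over the 6 libraries. Ccnb3 and Cdc25b were longer in all 3 libraries labelled KO, 2 of the 39 members, where 4.02% of 11480 genes did the same. Cdc27, Mad2l1 and Aurkb were shorter in all 3, 3 of the 39, where 5.31% of genes were. Cdc25b measured 3031, 2663 and 3070 bases in KO, against 2556, 2366 and 2535 bases in WT, at few reads a library. Cdc27 measured 2498, 2551 and 2506 bases in KO, against 2608, 2604 and 2611 bases in WT. Aurkb measured 1796, 1641 and 1592 bases in KO, against 1905, 1937 and 1824 bases in WT. These counts lie near the background and the lengths were not tested further.

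Around the 42 members, 55 further genes of the same pathways were listed by role, and 54 were tested. The exception, Ccna1, had 0 counts in every library. The edgeR test called 0 of the 54 in either direction, over 6 libraries and over 5. At an unadjusted p under 0.05, 0 were higher and 5 lower (9.26%) over 6 libraries, where 2.89% and 3.3% of all genes passed. Every KO library lay above WT for 4 genes, Ube2s, Ccna2, Ska2 and Ppp1cc (7.41%, against 6.48% of all genes). Every KO library lay below WT for 6, Anapc2, Anapc11, Anapc16, Rps6ka1, Zw10 and Kntc1 (11.1%, against 5.96%). Over 5 libraries these were 4 above (7.41%, against 15.3%) and 13 below (24.1%, against 13.3%). Rps6ka1, which encodes a kinase downstream of MAP kinase in cytostatic factor signalling, had 3.77, 3.41 and 3.24 CPM in KO, against 8.37, 6.32 and 27.5 CPM in WT. Every KO value was below every WT value and WT replicate 3 stood far above the rest. It had a log2 fold change of -2.02 (SE 0.57, adjusted p = 0.766) in edgeR, and DESeq2 gave -2.00 with an adjusted p of 0.0365. Without WT replicate 3 edgeR gave a log2 fold change of -1.08 (SE 0.32, adjusted p = 0.189).

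Zw10 and Kntc1 encode partners in the complex that brings dynein and checkpoint proteins to kinetochores. Zw10 had 42.8, 43.8 and 36.1 CPM in KO, against 52.6, 51.3 and 59.5 CPM in WT. Kntc1 had 33.3, 32.7 and 24.9 CPM in KO, against 44.5, 43.0 and 37.7 CPM in WT. Neither gene's groups overlapped, and edgeR gave Zw10 a log2 fold change of -0.41 (SE 0.14, adjusted p = 0.766) and Kntc1 a log2 fold change of -0.46 (SE 0.17, adjusted p = 0.766). Over 5 libraries their log2 fold changes were -0.35 and -0.53. Zwilch, tested in the same kinetochore group of the list, did not share this. It had 53.2, 50.2 and 45.2 CPM in KO, against 50.7, 68.7 and 32.4 CPM in WT. Its groups overlapped, and its log2 fold change was -0.03 over 6 libraries and -0.27 over 5. Spdl1, which encodes a dynein adaptor recruited by the complex of Zw10 and Kntc1, was picked out after its values were seen. It had 309, 287 and 298 CPM in KO, against 385, 389 and 304 CPM in WT, where WT replicate 3 was the only WT library within the KO range. With 6 libraries edgeR gave a log2 fold change of -0.27 (SE 0.13, adjusted p = 0.766) and DESeq2 an adjusted p of 0.769. With 5 libraries edgeR gave a log2 fold change of -0.38 (SE 0.09, adjusted p = 0.127), and DESeq2 gave an adjusted p of 0.00692. Anapc11, the catalytic RING subunit of the anaphase promoting complex, had 79.3, 71.1 and 77.2 CPM in KO, against 106, 82.1 and 107 CPM in WT. Its groups did not overlap, and edgeR gave a log2 fold change of -0.38 (SE 0.14, adjusted p = 0.766), with a log2 fold change of -0.31 over 5 libraries.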

How the data were processed

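The 42 members, the related genes and the marker lists were chosen with earlier results of these data known. The authors deposited RSEM expected counts, TPM, FPKM and transcript lengths per gene, per the file headers. The FPKM values deposited by the authors stayed out of all steps. The submitters' processing notes name STAR 2.6.1c, Trim Galore 0.4.5, DESeq2 1.42.1, RSEM 1.3.1 and the build GRCm38 (mm10), without roles. The annotation release and strand setting are not given in the sources used here. Without strand, a gene and an antisense or overlapping neighbour cannot be told apart. Groups and replicate numbers came from sample titles.

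Expected counts were rounded and tested with the edgeR 4.0.16 quasi-likelihood test in R 4.3.3 (filterByExpr, TMM factors, genotype as the only term, Benjamini-Hochberg adjustment over all genes tested, threshold 0.05). Standard errors of log2 fold changes came from the F statistic. CPM used TMM-scaled library sizes. The deposited TPM values, scaled to length by the authors, served for levels between genes and for ratios. A symbol was found for 55144 of 55471 gene IDs. The fit was checked on simulated counts.

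Values per library are given for members that were called, whose groups did not overlap, the 8 with the smallest p, the 6 highest in TPM and the top of each role, and for the 4 related genes with the smallest p. Alternatives were RLE factors, library totals, DESeq2 1.42.0, limma-voom (limma 3.58.1), other filters, log2 of TPM plus 1 or 0.1, the replicate block and leaving out each library. DESeq2 and limma-voom without WT replicate 3 were added after seeing the data, as were the ratios between partner genes, with CPM or without WT replicate 3 as their alternatives. The sperm and blastocyst samples were not analysed here.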

Additional observations from a re-analysis of the deposited data

How the results depend on the processing

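The count of called members was 0 in each direction under every alternative run, and the members' median log2 fold change of -0.06 ranged from -0.12 to 0.01. Genes called higher over the whole table were 0 in the edgeR test, 81 with DESeq2, 7 and 8 with limma on log2 of TPM plus 1 and plus 0.1, and 0 to 81 when 1 library was left out. Genes called lower were 2, against 20 with DESeq2, 5 and 5 on TPM, and 1 to 11 with 1 library left out. Without WT replicate 3, 426 genes were higher and 76 lower in DESeq2, and 5 higher and 6 lower in limma-voom. Of the related genes, DESeq2 called 1 lower (Rps6ka1, log2 fold change -2.00) with all libraries and 1 lower (Spdl1) without WT replicate 3. The causes were not tested.

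Several members changed sign, among them Cdc25b, Cdc14b and Anapc5, whose values with all libraries were -0.38, -0.33 and -0.26. Ccnb3 was 0.0219 with limma-voom and 0.0147 with the replicate block, and Cdc25b 0.0647 and 0.15. Cdc23 was -0.0656 with library totals, -0.0056 with a filter of 1 CPM, and -0.0028 and -0.0032 on TPM. Tpx2 was -0.0295 with library totals and -0.0411 and -0.0413 on TPM, and Wee2 was -0.0021 on both TPM scales. With 1 library left out, these ranged across 0: Anapc4 from -0.27 to 0.16, Anapc5 from -0.45 to 0.061, Bub3 from -0.17 to 0.0484, Ccnb2 from -0.11 to 0.0383, Ccnb3 from -0.13 to 0.21, Cdc14b from -0.53 to 0.12, Cdc23 from -0.0569 to 0.0737, Cdc25a from -0.32 to 0.0949, Cdc25b from -0.84 to 0.77, Cdc27 from -0.24 to 0.0153, Cdca8 from -0.0993 to 0.20, Cdk1 from -0.0316 to 0.18, Espl1 from -0.32 to 0.0583, Fbxo43 from -0.21 to 0.0103, Ndc80 from -0.0989 to 0.0532, Nuf2 from -0.0243 to 0.34, Tpx2 from -0.11 to 0.15, Ttk from -0.28 to 0.006, Wee2 from -0.0124 to 0.15 and Zwint from -0.0678 to 0.43.

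Deviations of same-numbered libraries from their group means had correlations of 0.063, -0.111 and 0.008 over genes. With 3 libraries a group, these cannot decide whether the libraries were paired, and the labels state no pairing. The replicate block left 0 genes called higher and 2 lower. With 3 libraries a group, low members such as Cdc25c and Aurkb are bounded only within wide intervals.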
